A study of Mus musculus with 50 samples.

Results

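The BUB/BnJ samples were 2 of 50 Affymetrix expression arrays of mouse dorsal root ganglia, 1 hybridised with RNA from males and 1 with RNA from females of this inbred strain. Both were chosen by their strain label. They were compared with 44 arrays of 22 other inbred strains, each again represented by 1 male and 1 female array. SM/J and PL/J were left out because their sex-linked transcripts disagreed with their labels: the male PL/J array read 8.97 for Xist and the female SM/J array read 6.82 for the Y-linked gene Eif2s3y, on the log2 scale used throughout. All mice were wildtype, untreated and 2 months old. For each array, ganglion RNA of 3 mice of 1 strain and sex was pooled, so a strain had 2 pools, and differences between single mice could not be seen. The title of the series concerns the nicotinic receptor gene Chrna6, the purinergic receptor made of P2X2 and P2X3 subunits, and differences in chronic pain.

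Dorsal root ganglia lie beside the spinal cord and hold the cell bodies of the sensory neurons that carry touch, itch, temperature and pain from the body. Each neuron is wrapped by satellite glia, its axon is ensheathed by Schwann cells, and macrophages, fibroblasts and blood vessels fill the space between. Inbred strains carry fixed sets of alleles, and many genes are expressed at different levels in strains that inherited different alleles of the gene or its surroundings. BUB/BnJ is an albino strain best known for early hearing and vision loss.

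The neuronal and glial identity of the BUB/BnJ RNA was checked with defining markers. Prph, an intermediate filament of peripheral neurons, read 12.28 on the male and 12.10 on the female array, against 12.02 to 12.80 in the other strains. The sensory neuron gene Avil read 12.36 and 12.08, the myelin gene Mbp 13.91 and 13.86, and the glial gene Fabp7 12.95 and 13.32. Some genes of adjacent tissue were low: Alb, the liver's main plasma protein, read 2.45 and 2.69, and the oligodendrocyte gene Mog 3.52 and 3.46. Mobp, also an oligodendrocyte gene, was not low. Both BUB/BnJ arrays lay above the other strains' median of 4.94 for Mobp, inside their range of 3.83 to 7.66 (mean difference 0.54). The muscle gene Acta1 read 7.25 on the male and 4.69 on the female array, inside the range of 3.66 to 10.83 of the other strains. Xist read 2.36 in the male and 10.53 in the female BUB/BnJ array, as their sex labels require. Xist was above log2 4 in 6 male arrays of other strains, and the comparison was repeated without them. The median intensity was 9.5 for the male and 9.57 for the female BUB/BnJ array, and the difference between the 3-prime and 5-prime Gapdh control probe sets, a sign of RNA integrity, was -0.45 and -0.50, inside the range of the other strains. In bulk tissue, fewer cells of a type and less RNA per cell cannot be told apart.

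A difference below is the level in BUB/BnJ minus the mean of the 22 other strains, both as log2(intensity + 1) and within sex. A probe set was called when limma gave a Benjamini-Hochberg adjusted p under 0.05 over 22130 tested probe sets, the difference was at least 1 log2 unit (a factor of at least 2 on that scale) and both BUB/BnJ arrays lay on the same side. In BUB/BnJ ganglia 136 probe sets were higher, 0.615% of those tested, and 98 were lower, 0.443%. When each gene was represented by its brightest probe set, 48 of 11209 genes were higher (0.428%) and 44 were lower (0.393%). The male and female differences lay near a common line for most called genes. The call favours such agreement, because it requires both BUB/BnJ arrays on the same side. Over all tested genes the median difference was 0.01 and 68.7% had the same sign in both arrays.

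The spread behind these adjusted p-values is that between the male and the female array of a strain, so they measure only the spread between these pools. They do not ask whether BUB/BnJ lies outside the spread between strains, and most called genes had company: for 43 of the 48 higher and 40 of the 44 lower genes, at least 1 other strain mean lay within 1 log2 unit of BUB/BnJ. BUB/BnJ had the highest strain mean in 28 of the 48 higher genes and the lowest in 23 of the 44 lower genes. Both of its arrays lay beyond all other arrays of their sex in 19 of the higher and 12 of the lower genes. Over all tested genes, called or not, both arrays lay above all others in 0.66% and below all others in 0.473%. When each strain mean was treated as 1 unit, so that the spread between strains became the yardstick, 5 genes remained higher and 5 lower, and 393 genes had an unadjusted p under 0.05.

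**Figure D1:**
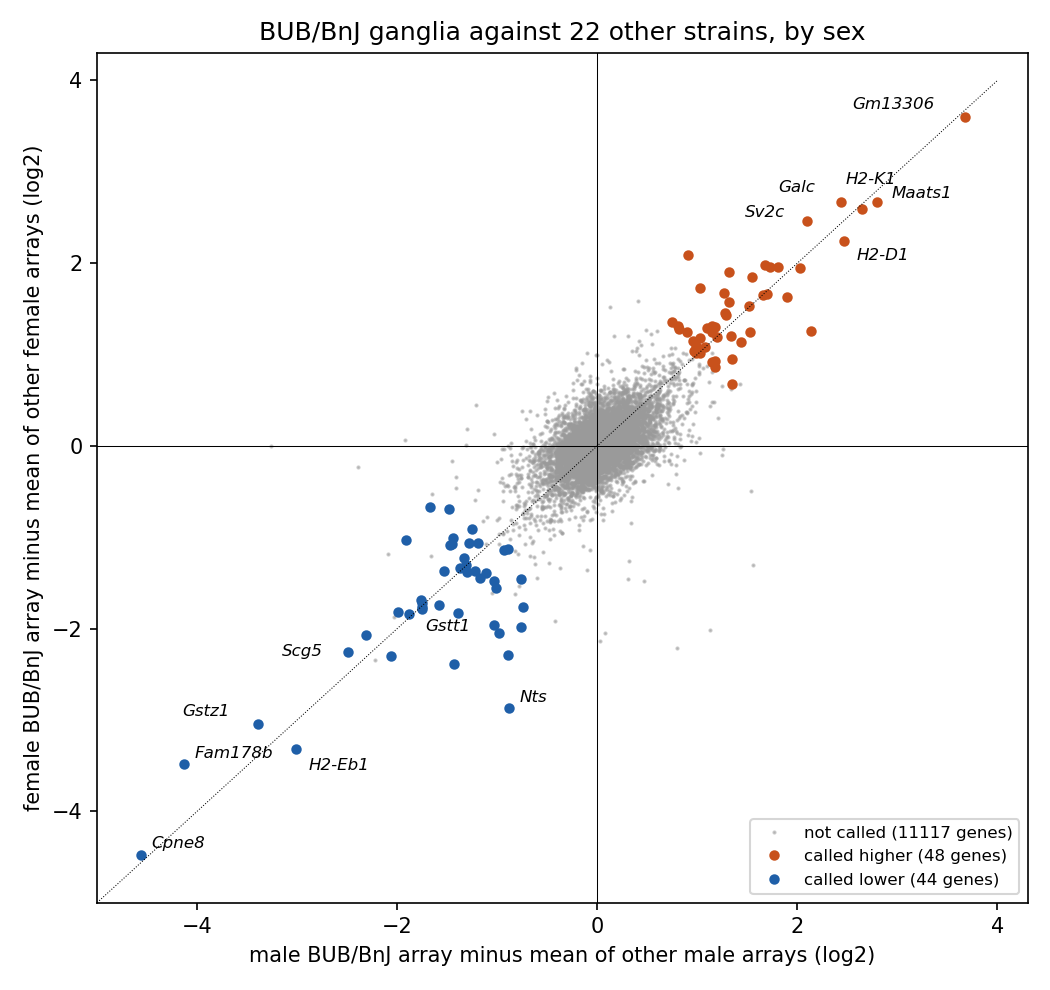
Difference of the male (horizontal axis) and the female (vertical axis) BUB/BnJ array from the mean of the other strains' arrays of the same sex, in log2 units, for the 11209 tested genes; orange marks the 48 genes called higher, blue the 44 called lower and grey the rest. Most called genes lie near the dotted line of equal differences, which the call favours by requiring both arrays on the same side. Nts, at -0.88 on the male and -2.87 on the female array, is among those far from it.

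The 5 genes that were higher in BUB/BnJ than the spread between strains were Maats1, Sv2c, Gpnmb, Rab27b and Rpp25l. Maats1, which encodes a protein of motile cilia and flagella, read 6.09 on the male and 6.17 on the female array, against a lowest value of 3.19, a median of 3.37 and a highest of 4.42 in the other strains. The difference was 2.73 (SE 0.15, adjusted p = 8.2e-13 by limma). Most other strains were near the lowest values of the arrays for Maats1, so no fold is given, and none came within 1 log2 unit of BUB/BnJ. Sv2c encodes a membrane glycoprotein of synaptic vesicles. It read 5.64 and 6.16 in BUB/BnJ, against 3.14, 3.41 and 5.30 as lowest, median and highest elsewhere, a difference of 2.28 (SE 0.31, adjusted p = 1.9e-05 by limma). The ranges did not overlap, and MRL/MpJ was the nearest strain.

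Gpnmb encodes a transmembrane glycoprotein found in macrophages and pigment cells. It read 4.32 and 4.79 in BUB/BnJ and 2.32 to 3.56 in the other strains, with a median of 2.66; the difference was 1.84 (SE 0.18, adjusted p = 6.5e-08 by limma). The other arrays were all under log2 4, and with log2(intensity + 16) the difference was 0.84, short of the call. The nearest strain to BUB/BnJ was c57BL/6J, and no other array reached either BUB/BnJ array. Rab27b encodes a small GTPase that docks vesicles for secretion, and it was abundant everywhere. Its levels were 9.93 and 10.05 in BUB/BnJ against 8.03, 8.47 and 9.08 as lowest, median and highest elsewhere (difference 1.53, SE 0.13, adjusted p = 5.2e-09 by limma), again with no overlap. Rab27b and Rpp25l were named because they passed the test against the spread between strains, after their values had been seen; Rpp25l is described with its neighbours on chromosome 4. Against the spread between strains the adjusted p by limma was 4.3e-11 for Maats1, 0.00023 for Sv2c, 5.1e-06 for Gpnmb, 0.00012 for Rab27b and 9.5e-05 for Rpp25l.

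The 5 genes below the spread between strains were Gstz1, Gstt1, Slc35b4, Akap7 and Zkscan1. Gstz1, the maleylacetoacetate isomerase of tyrosine breakdown, read 3.30 in the male and 3.57 in the female BUB/BnJ array. In the other strains it read 5.91 at the lowest, 6.73 at the median and 7.04 at the highest. The difference was -3.22 (SE 0.17, adjusted p = 3.4e-13 by limma), with more than 2 log2 units between the groups. Both BUB/BnJ arrays were under log2 4, near the floor, so the size of the fall is uncertain. Gstt1, a theta-class glutathione transferase, read 5.08 and 5.19 against 6.34 to 7.45, with a median of 6.98 (difference -1.86, SE 0.16, adjusted p = 6.2e-09 by limma). Both enzymes conjugate or isomerise small molecules with glutathione, and for neither did another strain come within 1 log2 unit.

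Slc35b4, a transporter of nucleotide sugars into the secretory pathway, read 4.91 and 4.95 in BUB/BnJ and 5.95 to 7.16 elsewhere (difference -1.76, SE 0.17). Akap7, an anchor of protein kinase A, read 4.6 and 4.42 against 5.45 to 7.02 (difference -1.77, SE 0.20). Zkscan1, a zinc-finger protein named after its values were seen, read 6.07 and 6.29 against 7.02 to 7.90 (difference -1.31, SE 0.10), and 129S1/Sv1mJ lay within 1 log2 unit. Both BUB/BnJ arrays lay below all other arrays for these 3 genes. Against the spread between strains the adjusted p by limma was 9.7e-10 for Gstz1, 1.3e-05 for Gstt1, 9.9e-06 for Slc35b4, 0.0012 for Akap7 and 1.3e-05 for Zkscan1. Averaged over all its tested probe sets Zkscan1 had a difference of -0.86, short of 1 log2 unit.

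**Figure D2:**
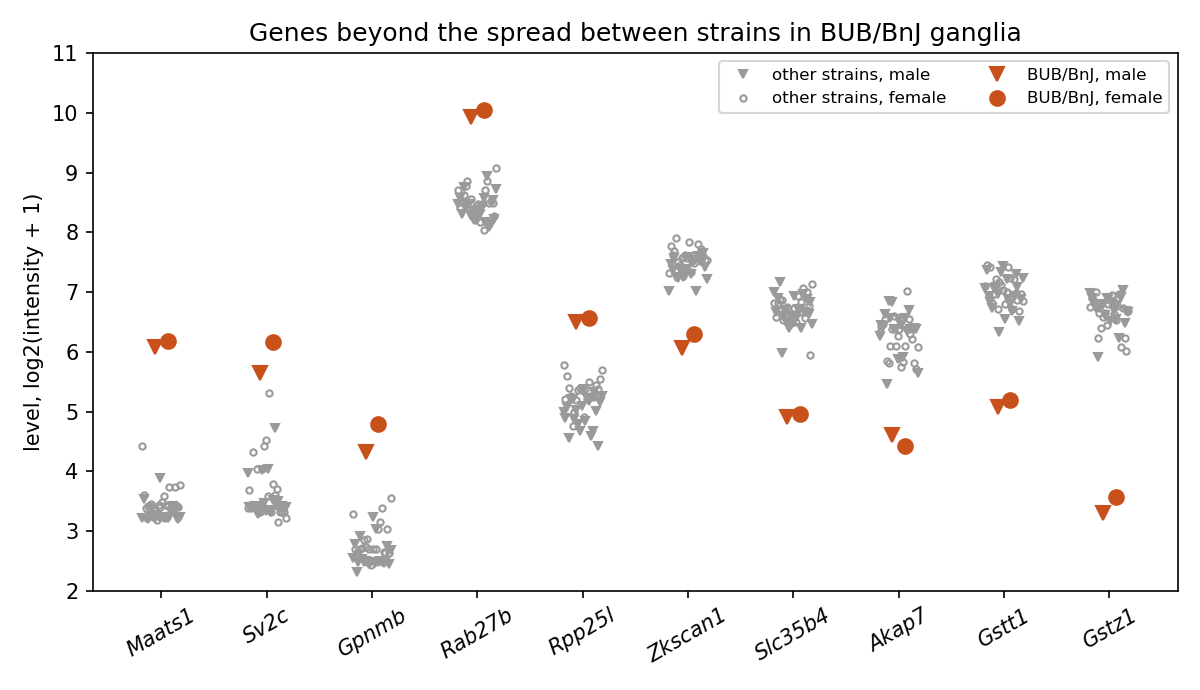
Levels, as log2(intensity + 1), of the 10 genes that passed the test against the spread between strains; orange symbols are the 2 BUB/BnJ arrays (triangles male, circles female) and grey symbols the arrays of the 22 other strains. The orange pairs lie outside the grey columns for each gene, for instance at 3.30 and 3.57 for Gstz1 against 5.91 to 7.04.

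A second group of large differences lay in the major histocompatibility complex (MHC) on chromosome 17. Its class I genes H2-K1 and H2-D1 encode the heavy chains that present peptides from inside the cell to cytotoxic T cells, and H2-Eb1 encodes the beta chain of a class II molecule that presents engulfed antigens to helper T cells. By strain background, BUB/BnJ, SWR/J and FVB/NJ carry the q haplotype of this complex, while AKR/J, CBA/J, C3H/HeJ, C58/J, C57BR/cdJ and MRL/MpJ carry the k haplotype. The 250 bases before the annotated starts of the 3 genes are shown as a description, and any part of them in the levels was not tested. They are the C57BL/6J reference sequence of RefSeq on build GRCm38.p6, not that of BUB/BnJ. Capitals mark matches to GGGANTCCC (N being any base, the NF-kB type site of class I enhancer A) and TTTCNNTTC (the core of an interferon response element) in the class I genes and to GATTGGCT (a class II Y box) in H2-Eb1. H2-K1 lies at chr17:34000348-34000597 on the minus strand, H2-D1 at chr17:35262844-35263093 on the plus strand and H2-Eb1 at chr17:34305617-34305866 on the plus strand.
H2-K1: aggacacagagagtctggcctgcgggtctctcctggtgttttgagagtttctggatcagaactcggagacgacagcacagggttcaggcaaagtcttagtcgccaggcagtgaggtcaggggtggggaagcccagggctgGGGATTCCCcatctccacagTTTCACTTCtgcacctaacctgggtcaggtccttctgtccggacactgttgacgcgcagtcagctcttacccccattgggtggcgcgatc
H2-D1: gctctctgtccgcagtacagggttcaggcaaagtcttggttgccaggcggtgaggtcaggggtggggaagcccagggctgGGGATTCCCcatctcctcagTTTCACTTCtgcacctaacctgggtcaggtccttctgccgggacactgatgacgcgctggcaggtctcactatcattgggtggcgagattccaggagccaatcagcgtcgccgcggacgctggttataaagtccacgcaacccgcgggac
H2-Eb1: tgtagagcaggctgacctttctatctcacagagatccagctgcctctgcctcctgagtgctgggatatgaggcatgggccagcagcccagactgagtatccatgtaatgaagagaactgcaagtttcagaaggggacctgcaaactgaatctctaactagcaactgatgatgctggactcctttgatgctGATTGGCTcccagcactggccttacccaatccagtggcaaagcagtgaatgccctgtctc

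The enhancer A motif began 110 bases before the start of H2-K1 and 170 before that of H2-D1, and the interferon response motif began 90 and 150 bases before them; the motifs do not overlap. Searched on both strands of 32851 promoter windows of this length, the first occurred in 209 windows (0.636%) and the second in 2073 (6.31%). The Y box letters occurred in 1188 windows (3.62%). They began 60 bases before the start of H2-Eb1 and on the minus strand 55 bases before H2-D1. Aligned with unpaired ends left out, the H2-K1 and H2-D1 windows of 250 bases overlapped over 190 positions, of which 166 were identical (87.4%). A match is a description of the letters only.

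H2-K1 read 10.82 in the male and 10.80 in the female BUB/BnJ array, against a lowest value of 4.90, a median of 9.03 and a highest of 10.64 in the other strains. It was 6.16-fold higher (difference 2.62, SE 0.24, adjusted p = 2.0e-08 by limma). Both BUB/BnJ arrays were above all others, though SWR/J, with a strain mean of 10.46, and FVB/NJ, with 10.27, were close behind. The 6 strains of the k haplotype formed a separate low group, with strain means of 5.12 to 5.55, and the remaining strains lay from 8.11 to 9.44.

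H2-D1 showed the same order. It read 11.61 and 11.38 in BUB/BnJ, with 6.71, 9.70 and 11.29 as lowest, median and highest elsewhere, a difference of 2.35 (SE 0.20, adjusted p = 3.9e-09 by limma). SWR/J followed at 11.17 and FVB/NJ at 11.02, and AKR/J was lowest at 6.75. H2-D1 shares much sequence with other class I genes, so its probe sets can pick up more than 1 transcript. They disagreed. In BUB/BnJ 3 other probe sets had differences of 2.77, 2.42 and 2.35, each called, while 4 lay between -1.08 and -0.71, and 1 of these, 1450170_x_at, was called lower. Averaged over all tested H2-D1 probe sets, the difference was 0.81, below the 1 log2 unit of the call. For H2-K1 the other probe sets gave 2.51, 0.68 and -0.33.

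H2-Eb1 went the other way. It read 3.08 and 3.22 in BUB/BnJ, near the detection floor, against 2.76, 6.40 and 8.43 as lowest, median and highest elsewhere. The difference was -3.17 (SE 0.24, adjusted p = 5.8e-10 by limma); with BUB/BnJ at the floor no fold is given. The low state was shared with FVB/NJ at a mean of 3.14 and SWR/J at 3.45, and no other strain mean was below 5.58. None of the 3 MHC genes passed the test against the spread between strains.

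**Figure D3:**
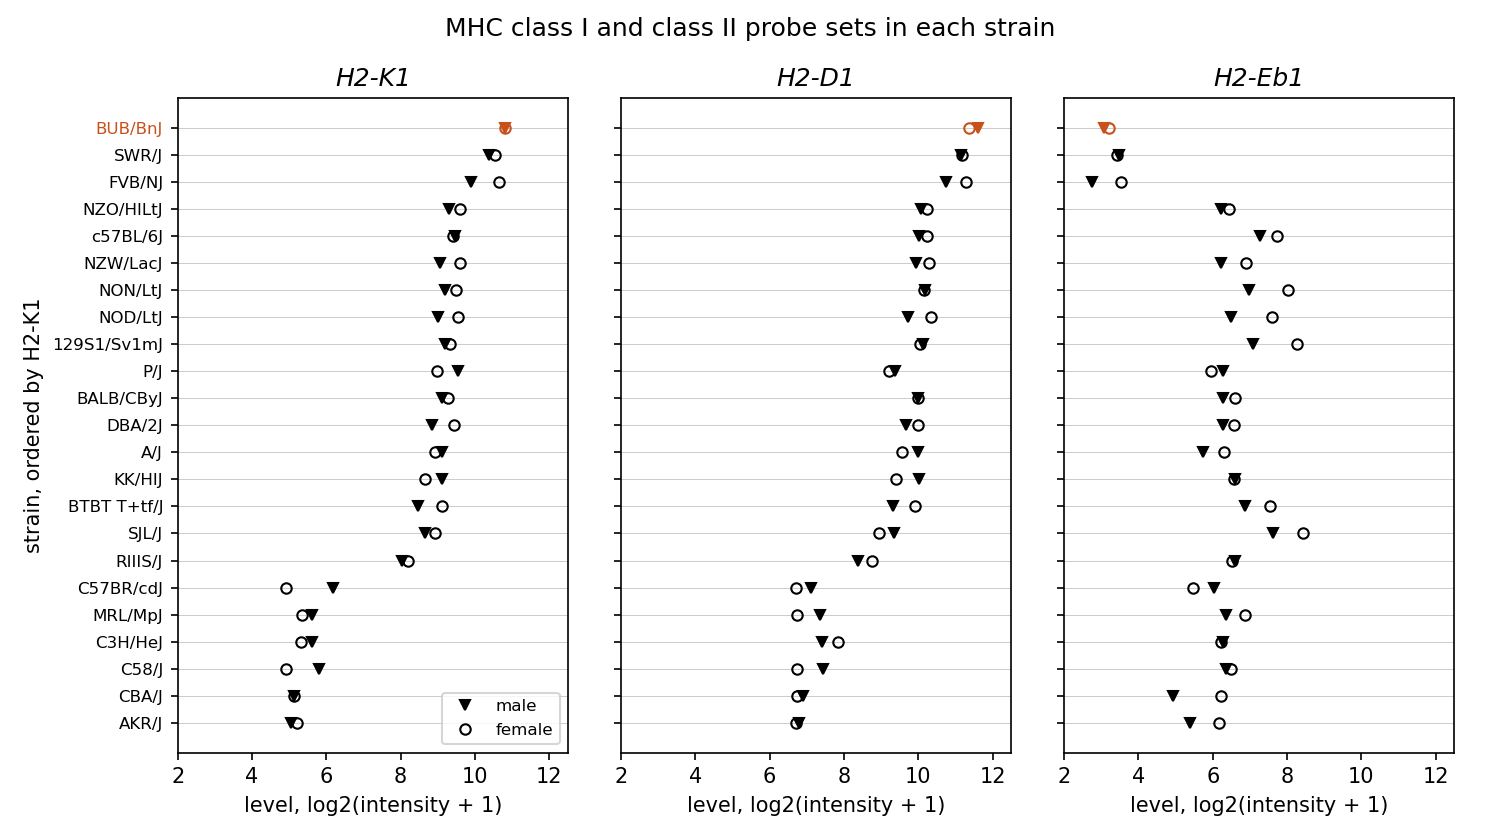
Level, as log2(intensity + 1), of H2-K1, H2-D1 and H2-Eb1 in the male (triangles) and female (open circles) array of each of 23 strains, ordered by H2-K1, with BUB/BnJ in orange. BUB/BnJ, SWR/J and FVB/NJ have the 3 highest strain means for H2-K1 and H2-D1 and the 3 lowest for H2-Eb1.

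Few other genes of antigen presentation were called. Of 10 tested genes of class I and peptide loading, 2 were called higher, and the list median was 0.10 against 0.01 over all tested genes. B2m, the light chain of class I molecules, read 11.31 and 11.35 in BUB/BnJ (difference 0.39, adjusted p = 0.39 by limma). The differences of the peptide transporter gene Tap2, the loading factor Tapbp, the immunoproteasome subunit Psmb8, the non-classical class I gene H2-M3 and the chaperones Canx, Calr and Pdia3 ran from -0.36 for Calr to 0.42 for H2-M3, and none was called. Of 7 class II genes, only H2-Eb1 was called: H2-Aa and H2-Ab1, the chains of the other class II molecule, had differences of 0.60 and -0.09, and the invariant chain Cd74 had -0.17. H2-Ea, the partner chain of H2-Eb1, had -0.48 on its brightest probe set. Another of its probe sets, 1422892_s_at, was called lower at 2.62 and 2.63 in BUB/BnJ (difference -1.05, adjusted p = 0.0063 by limma). The other arrays reached from 2.6 to 8.24 on it, but their median of 2.65 was at the floor too and 16 strains lay within 1 log2 unit. The peptide exchange genes H2-DMa and H2-DMb2 had -0.17 and 0.07.

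Along the chromosome, 48 tested genes lay from H2-K1 to H2-D1. Besides the 3 genes above, only Agpat1, a lysophosphatidic acid acyltransferase gene named after its values were seen, was called among them, and 27 of the 48 differences were positive. Agpat1 read 5.53 and 5.72 in BUB/BnJ against 3.33 to 6.82 elsewhere (difference 1.06, SE 0.29, adjusted p = 0.0448 by limma). The ranges overlapped and the call was fragile. The adjusted p rose to between 0.0520 and 0.0755 when any 1 of 129S1/Sv1mJ, A/J, AKR/J, BALB/CByJ, C3H/HeJ, c57BL/6J, C57BR/cdJ, C58/J, CBA/J, NOD/LtJ, NON/LtJ, RIIIS/J or SJL/J was left out, and to 0.20 and 0.72 without the male or the female BUB/BnJ array.

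On chromosome 4, both BUB/BnJ arrays lay above all other arrays of their sex in 5 consecutive tested genes: Rpp25l, Dctn3, Galt, Ccl27a and Gm13306. This stretch was bounded by those values after they had been seen. Cntfr, the tested gene before it, also had its highest strain mean in BUB/BnJ, but its difference was 1.26 on the male and -0.03 on the female array (adjusted p = 0.19 by limma). Ccl27a encodes a chemokine that guides T cells to skin, and Gm13306, the next tested gene, is a predicted gene that showed the largest rise of all tested genes. The stretch carries several copies of the Ccl27 and Il11ra families in the reference genome, so signals can come from more than 1 copy. The 250 bases before the start of both genes are shown to let the copies be compared, from RefSeq, build GRCm38.p6, with capitals at the bases that differ in the alignment. Ccl27a lies at chr4:41774177-41774426 on the minus strand and Gm13306 at chr4:42153195-42153444 on the plus strand.
Ccl27a: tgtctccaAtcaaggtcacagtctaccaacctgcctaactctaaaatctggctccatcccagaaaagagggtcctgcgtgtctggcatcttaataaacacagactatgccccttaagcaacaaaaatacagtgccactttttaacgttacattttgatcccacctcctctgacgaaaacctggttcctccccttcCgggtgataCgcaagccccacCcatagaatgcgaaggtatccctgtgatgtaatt
Gm13306: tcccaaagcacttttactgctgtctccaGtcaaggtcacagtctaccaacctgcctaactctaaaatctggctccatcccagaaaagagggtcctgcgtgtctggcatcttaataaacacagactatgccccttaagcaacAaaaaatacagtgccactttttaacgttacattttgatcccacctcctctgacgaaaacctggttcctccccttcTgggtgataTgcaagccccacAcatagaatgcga
Over 230 aligned positions 225 bases were identical (97.8%), 4 differed and 1 was a gap. The window of Gm13306 was identical over all 250 bases to that of Ccl27b, another copy.

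Gm13306 read 8.70 in the male and 8.93 in the female BUB/BnJ array, against 3.11, 4.89 and 8.39 as lowest, median and highest elsewhere. It was 12.4-fold higher (difference 3.64, SE 0.15, adjusted p = 8.2e-16 by limma). Both arrays were above all others, but the other strains were not uniform. P/J reached a mean of 8.07, NZO/HILtJ 7.98, MRL/MpJ 7.68, KK/HIJ 7.48, AKR/J 7.37, c57BL/6J 7.17 and NOD/LtJ 7.11. The remaining strains formed a lower group, from 3.18 in SWR/J to 5.47 in RIIIS/J, and these low strains widened the difference. Ccl27a read 8.18 and 8.59, with 4.08, 7.23 and 7.83 elsewhere, a difference of 1.45 (SE 0.15, adjusted p = 2.3e-07 by limma).

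Rpp25l, related to a protein subunit of ribonuclease P, read 6.50 and 6.57 in BUB/BnJ and 4.42, 5.21 and 5.77 elsewhere (difference 1.39, SE 0.19, adjusted p = 1.5e-05 by limma). The 2 genes between it and Ccl27a were also above all other arrays of their sex but fell short of 1 log2 unit, and they were named after their values were seen. Dctn3, a dynactin subunit, read 10.98 and 11.02 against 9.26 to 10.87 (difference 0.96, adjusted p = 7.0e-05 by limma). Galt, an enzyme of galactose metabolism, read 7.53 and 7.65 against 6.16 to 7.23 (difference 0.82, adjusted p = 5.3e-06 by limma). None of the 10 tested genes before the stretch or the 10 after it was called. Their differences ran from -0.23 to 0.61 before it and from -0.59 to 0.28 after it.

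Of 8 tested probe sets that match several genes, genes of this stretch included, 7 were called higher in BUB/BnJ. They cannot be assigned to 1 gene. The largest, 1447939_a_at, read 9.62 and 9.66 in BUB/BnJ against 3.33 to 9.53 elsewhere (difference 4.2, SE 0.16), and the smallest of the called, 1439647_at, had a difference of 1.13. The exception, 1419426_s_at, read 4.31 on the male and 6.38 on the female array (difference 0.57, adjusted p = 0.40 by limma). Chromosome 4 held 14 called genes among 689 tested (2.03%) and chromosome 17 held 9 among 506 (1.78%), against 0.821% of all tested genes. The only other pair of called neighbours was Acad9 and Zfp267 on chromosome 3, both lower, with differences of -1.74 and -1.90.

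**Figure D4:**
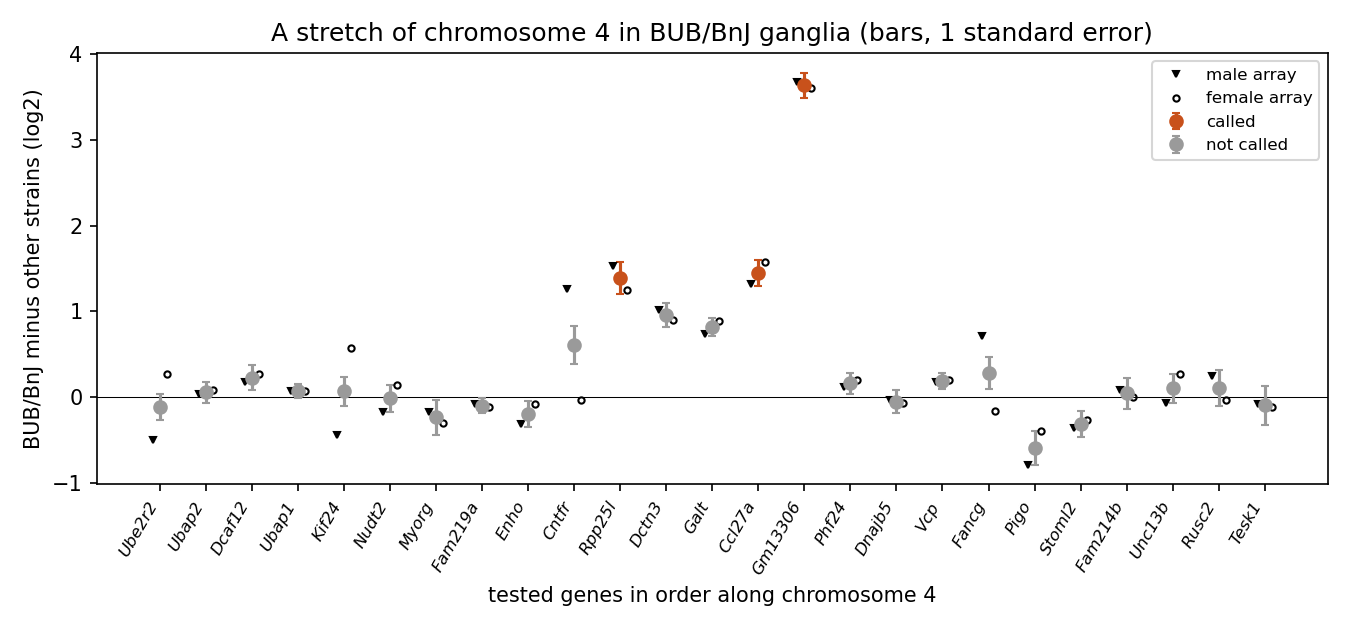
Difference between BUB/BnJ and the mean of the other strains (log2 units, bars 1 standard error) for 25 consecutive tested genes of chromosome 4 in order of position; orange points were called, black triangles and open circles give the male and female arrays. The 5 genes from Rpp25l to Gm13306 lie between 0.82 and 3.64, and the 10 on each side between -0.59 and 0.61.

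Many of the largest differences were levels that BUB/BnJ shared with several strains. Cpne8, a calcium-dependent phospholipid-binding copine, read 3.09 and 3.01 in BUB/BnJ and 9.00 at the median of the other arrays. The difference was -4.52 (SE 0.13, adjusted p = 1.5e-19 by limma), with BUB/BnJ near the floor. AKR/J, NZW/LacJ, DBA/2J, SJL/J, BALB/CByJ and MRL/MpJ were equally low, at strain means of 3.06 to 3.56. The other 16 strains lay from 8.90 to 9.77. Another probe set of Cpne8 was called in the same direction at -1.10 and 1 more in the opposite direction at 1.04.

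Fam178b read 3.66 and 4.0 in BUB/BnJ against a median of 8.13 (difference -3.81, SE 0.24, adjusted p = 7.5e-12 by limma), and MRL/MpJ, NZW/LacJ and C3H/HeJ were within 1 log2 unit of it. Scg5 encodes the chaperone 7B2 of prohormone convertase 2, which matures neuropeptides. It read 9.21 and 9.70 in BUB/BnJ, below all other arrays of their sex, which reached from 9.78 to 12.60 (difference -2.37, SE 0.14, adjusted p = 1.4e-12 by limma). The other strains fell into separate levels: c57BL/6J, C58/J, 129S1/Sv1mJ and C57BR/cdJ had strain means of 9.80 to 10.21, and the remaining 18 had 11.81 to 12.45.

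Galc, the lysosomal enzyme that breaks down the myelin lipid galactosylceramide, was the main rise of this kind. It read 7.16 and 7.45 in BUB/BnJ against 2.6, 3.35 and 7.62 as lowest, median and highest elsewhere (difference 2.55, SE 0.22, adjusted p = 5.1e-09 by limma). BUB/BnJ stood with 9 strains between 6.42 and 7.45, and 13 strains lay from 2.84 to 4.38. The other Galc probe set read 2.45 and 2.84 in BUB/BnJ against a median of 3.00 elsewhere, near the floor. Its difference was -0.35, and averaged over both probe sets Galc had 1.10, which kept the call. Cap1, a regulator of actin filaments, read 10.71 and 10.47, close to the median of 10.36 in the other arrays. Its difference of 1.83 came from 9 strains with means of 4.80 to 7.46. Against the median of the other strains' means the Cap1 difference was 0.17, and without the male or the female BUB/BnJ array its adjusted p was 0.10 and 0.24 by limma.

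Among the other large rises, Stk25, a protein kinase, read 8.25 and 7.38 in BUB/BnJ against a median of 6.01 (difference 1.98). Ceacam10, of the carcinoembryonic antigen family, read 7.62 and 8.39 against 6.24 (1.88), and the ribosomal protein gene Rpl14 7.51 and 7.06 against 5.41 (1.68). Tekt2, a filament protein of cilia and flagella, read 4.61 and 4.64 against 2.62 (difference 1.76), the protease inhibitor gene Spink10 4.49 and 4.82 against 2.77 (1.70), and the centrosomal gene Sfi1 4.52 and 4.22 against 2.61 (1.70). All 6 ranges overlapped with other strains. With log2(intensity + 16) the differences of Tekt2, Spink10 and Sfi1, whose other arrays had medians near the floor, were 0.80, 0.80 and 0.70, short of the call. Sfi1 lost its call without the male BUB/BnJ array (adjusted p = 0.083 by limma).

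Among the other large falls, Acad9, an assembly factor of respiratory complex I, read 4.97 and 5.48 in BUB/BnJ against a median of 7.05 elsewhere (difference -1.74, SE 0.13). Its other probe set had -0.13, and the average of both was -0.93, short of the call. Slc47a1, an exporter of organic cations, read 4.13 and 3.68 against 6.08 (difference -1.91, SE 0.45), and without the male or the female BUB/BnJ array its adjusted p was 0.070 and 0.58 by limma. Gdpd3, a lysophospholipase D, read 3.93 and 3.15 against 4.59 (difference -2.18), but 12 strains lay within 1 log2 unit, and against the median of the strains the difference was -0.99. Morn2 read 4.56 and 4.95 against 7.13 (-2.19), Zfp267 4.3 and 4.56 against 6.65 (-1.90) and D3Ertd751e 3.41 and 3.72 against 5.44 (-1.72, and -0.95 averaged over its probe sets). In 15 of the 44 lower genes the BUB/BnJ mean was under log2 4, near the floor of the arrays, and in 11 of the 48 higher genes the mean of the other strains was.

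Neurotensin, a neuropeptide that modulates pain, and one of its receptors were both called. Nts, the peptide's gene, read 6.42 in the male and 4.44 in the female BUB/BnJ array, against 4.77, 7.45 and 10.14 as lowest, median and highest elsewhere (difference -1.88, SE 0.49, adjusted p = 0.035 by limma). The female array was below all others, while the male array lay within their range, and the male difference was -0.88 against -2.87 in the female. Without the female array the call was lost (adjusted p = 0.95 by limma), and so it was without the male arrays of other strains with Xist (0.059). Ntsr2, the low-affinity receptor, read 5.57 and 5.95 against 2.57, 3.56 and 6.03 (difference 1.66, SE 0.22, adjusted p = 1.6e-05 by limma). SWR/J was nearest for Ntsr2, and 7 strains lay within 1 log2 unit.

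The ganglion's cell types and functions were followed through 40 gene lists, with each gene represented by its brightest probe set. Of 508 distinct tested members, 14 were called (2.76%, against 0.821% of all tested genes), and 29 lists had no called member. Besides the MHC genes, Nts, Sv2c and Gstt1, these were Cdh9, Gria1, Rgs5, Ttr and the list of known strain variants with Cpne8, Stk25, Gpnmb and Cap1. That list was drawn from genes known to differ between inbred strains, so calls in it say little of BUB/BnJ in particular. Its members that were not called had differences from -0.48 for H2-Ea to 0.91 for Pttg1, with Erdr1 at -0.45. Glo1, an enzyme of methylglyoxal removal, differed by -0.40 (adjusted p = 0.011 by limma) and was not called, while Nnt, Alad, Wdfy1, Ide, Dysf, Naip5, Mx1, Tlr4, Tyrp1 and Rpn1 were not called either.

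Few sensory neuron genes were called. None of 8 tested genes of non-peptidergic nociceptors and none of 9 of peptidergic nociceptors was called, and the list medians were 0.02 and 0.11, the first of which turned to -0.02 when arrays were shifted to the same median. The itch receptor gene Mrgpra3, named after its values were seen, read 7.52 and 8.02 (difference 0.76, adjusted p = 0.0037 by limma) within the range of 2.76 to 8.90 elsewhere. Among 7 genes of C low-threshold mechanoreceptors, the fibres of gentle touch, the adhesion gene Cdh9 was called higher at 7.55 and 7.26 against a median of 6.39 (difference 1.06, SE 0.23, adjusted p = 0.0072 by limma), and the list median was 0.27. Among 20 GABA and glutamate receptor genes, the AMPA receptor subunit Gria1 was called higher at 5.70 and 5.29 against 4.22 (difference 1.15, SE 0.22, adjusted p = 0.0021 by limma). For the glutamate receptor gene Grik1, 1439987_at was called higher (difference 2.09, adjusted p = 7.0e-05 by limma), with 10 strains within 1 log2 unit. The brightest Grik1 probe set had 0.24 and was not called. Without the male BUB/BnJ array the adjusted p was 0.35 for Cdh9 and 0.26 for Gria1, and without the female array it was 0.11 for Cdh9. With log2(intensity + 16) the differences were 0.93 for Cdh9 and 0.74 for Gria1, and averaged over its probe sets Gria1 had 0.80.

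On its brightest probe set, no sodium, potassium, calcium, TRP, ASIC or Piezo channel gene of the lists was called. The potassium list ran from -0.31 for Kcns1 to 0.998 for Kcnma1, the calcium list from -0.44 for Cacng5 to 0.93 for Cacna2d2. Outside the lists, the potassium channel gene Kcnf1, named after its values were seen, was called higher. It read 6.49 and 6.96 in BUB/BnJ (difference 1.11), while its probe set 1441300_at had 0.001. The alternatives were not run on Kcnf1. Another probe set of the sodium channel gene Scn2b, 1430648_at, was called lower. It read 3.18 and 3.86 in BUB/BnJ against a median of 5.35 elsewhere (difference -1.69, adjusted p = 0.00014 by limma). There 6 strains lay within 1 log2 unit, and the brightest Scn2b probe set had -0.20. The list medians were 0.17 for 11 sodium channel genes, -0.004 for 27 potassium and HCN channel genes, -0.003 for 13 calcium channel genes and 0.12 for 14 TRP, ASIC and Piezo genes. Against the median of the strains the potassium and calcium channel medians turned to 0.01 and 0.06. Of the genes in the title, Chrna6 read 6.92 and 7.31 in BUB/BnJ, within the range of 6.49 to 9.54 of the other strains and just under their median of 7.42 (difference -0.60, SE 0.18, adjusted p = 0.081 by limma). P2rx3 read 11.24 and 11.51 against a median of 11.40 (difference -0.01, adjusted p = 0.99 by limma). P2rx2 read 3.29 and 3.08, near the floor (difference -0.19).

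No glial gene of the lists was called: 0 of 15 Schwann cell myelin genes and 0 of 13 satellite glia genes were called, with medians of 0.03 and -0.08, the first of which turned to -0.01 when arrays were shifted to the same median. Endothelial and mural genes were lower in BUB/BnJ in both arrays for 14 of 18 members (median -0.27), and only Rgs5, a regulator of G-protein signalling in pericytes, was called. It read 8.46 and 8.62 against a median of 9.23 (difference -1.01, SE 0.16, adjusted p = 0.00014 by limma), just past the minimum difference. It fell short of that minimum, at -0.93 to -0.97, when any 1 of AKR/J, BALB/CByJ, c57BL/6J, C57BR/cdJ, C58/J, CBA/J or DBA/2J was left out, and was -0.89 without the female BUB/BnJ array (adjusted p = 0.054 by limma). Averaged over its probe sets Rgs5 had -0.91.

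Immune and blood lists had no called gene by brightest single-symbol probe sets. Interferon-stimulated genes had a median of 0.25 with 12 of 18 positive in both arrays; Ifit3 was highest among them at 0.94 (adjusted p = 0.080 by limma). Macrophage genes had a median of -0.30 with 12 of 15 negative in both arrays. Granulocyte and red cell genes had the lowest median of all lists, -1.31, with 8 of 9 negative in both arrays, and BUB/BnJ was lowest of the 23 strains on the list mean. S100a9 and S100a8, the calcium-binding proteins of neutrophils, read 6.06 and 5.36, and 6.45 and 5.99, against medians of 8.02 and 8.18. Their differences were -2.28 and -1.95, each with an adjusted p of 0.11 by limma. That p passed the threshold without P/J (0.046 for S100a9 and 0.037 for S100a8) and, for S100a9, without KK/HIJ (0.045). A haemoglobin probe set that matches both Hba-a2 and Hba-a1, and so was not a list member, was called lower. It read 8.36 and 8.73 in BUB/BnJ against 8.53, 10.91 and 13.68 as lowest, median and highest elsewhere (difference -2.57, SE 0.36, adjusted p = 2.7e-05 by limma). BUB/BnJ had the lowest strain mean, and 5 strains lay within 1 log2 unit. The amount of blood in the pools was not tested.

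Of 15 skeletal muscle genes 0 were called, and the list median of -0.45 was -0.02 on the male and -0.93 on the female array, and -0.25 against the median of the strains. Of 19 fibroblast and matrix genes 0 were called, and their median of -0.31 was -0.41 on the male and -0.07 on the female array. Of 6 liver secretory genes only Ttr was called, at 3.03 and 3.66 against a median of 3.90 (difference -1.27, SE 0.24, adjusted p = 0.0014 by limma). DBA/2J stood apart with a list mean 3.68 above the average strain, and against the median of the strains' means the Ttr difference was -0.51; averaged over its probe sets it was -0.76. Without the male BUB/BnJ array the adjusted p of Ttr was 0.20 by limma.

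Glutathione transferases and related enzymes detoxify reactive compounds. Of 23 tested glutathione and xenobiotic genes, 5 had an adjusted p under 0.05 by limma, against 2.45% of all tested genes, but only Gstt1 passed 1 log2 unit, and the list median was -0.14. The other 4, named after their values were seen, were the glutathione transferase Gstm2 (difference -0.88, adjusted p = 0.0077 by limma), aldehyde oxidase Aox1 (-0.69, 0.00031), epoxide hydrolase Ephx1 (-0.60, 0.0015) and thioredoxin reductase Txnrd1 (0.60, 0.0043). Gstz1 was not on that list. No gene of the mitochondrial respiratory chain (34 tested, median -0.06), sterol response (21, 0.003) or heat shock (15, 0.14) lists was called; the sterol median turned to -0.04 with arrays at the same median.

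**Figure D5:**
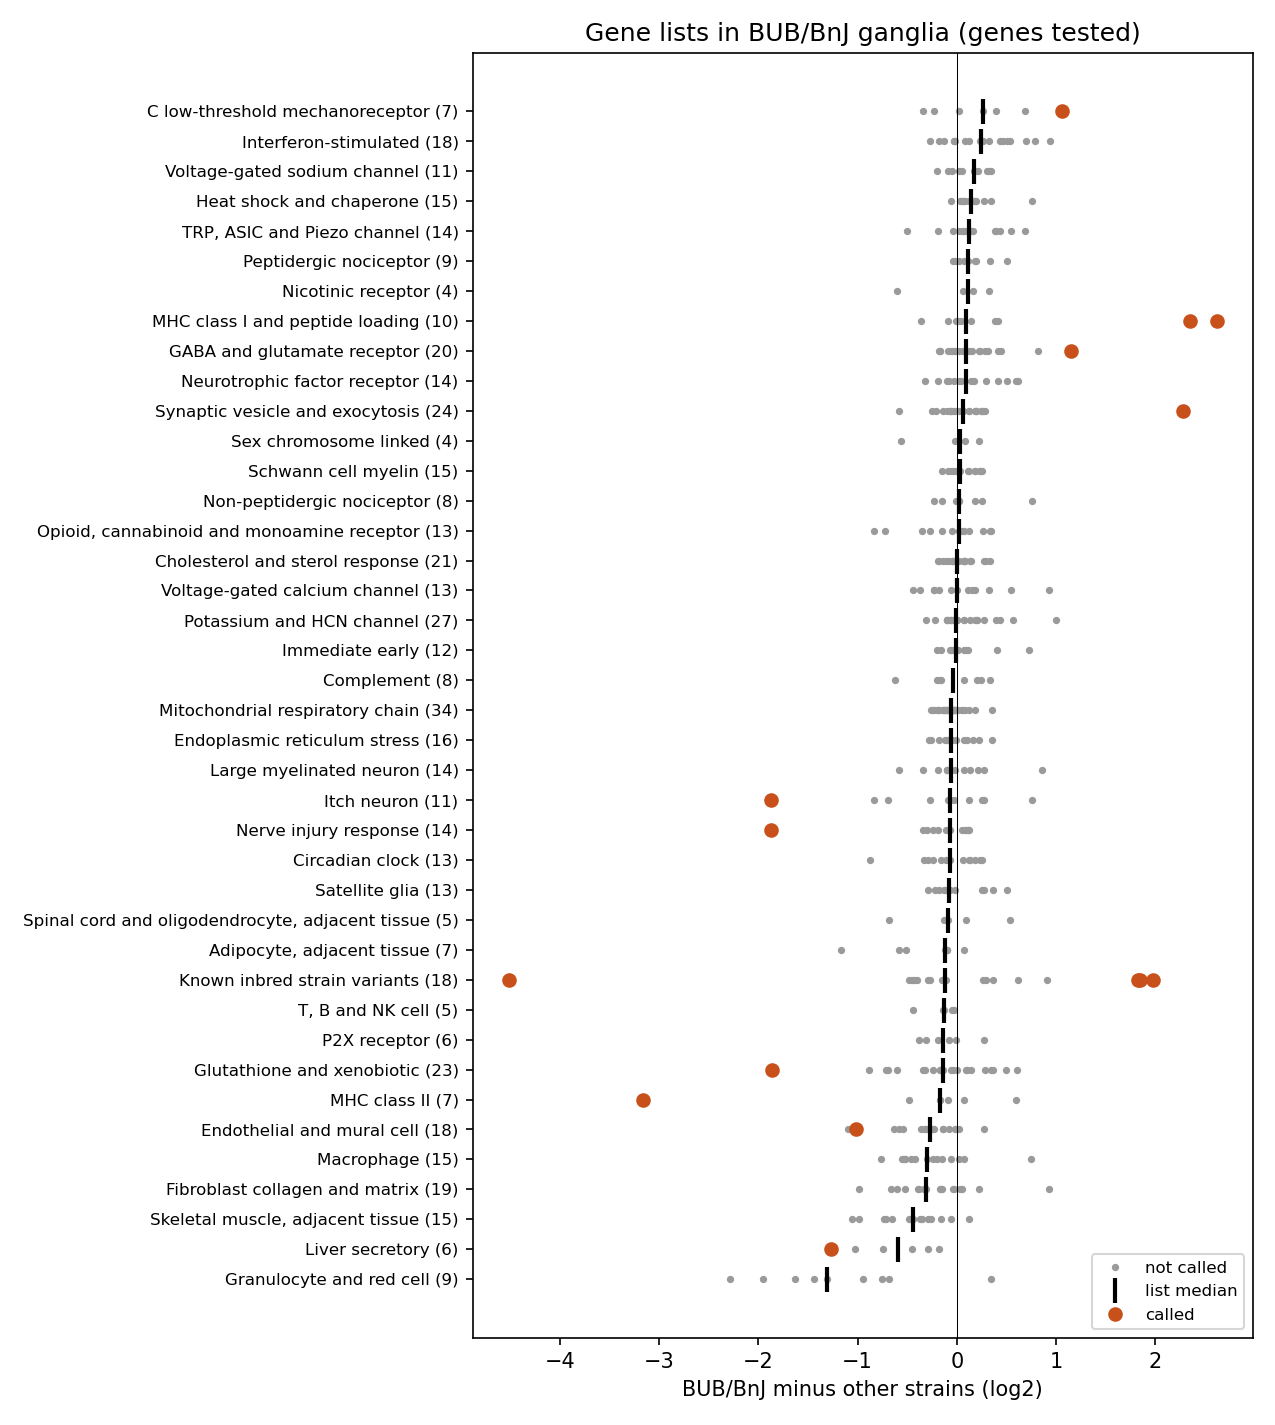
Difference between BUB/BnJ and the mean of the other strains (log2 units) for the tested members of 40 gene lists, numbers tested in parentheses; grey points were not called, orange points were called and black ticks are list medians. List medians lie between -1.31 for granulocyte and red cell genes and 0.27 for C low-threshold mechanoreceptor genes, and orange points occur in 11 lists.

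As a whole profile BUB/BnJ correlated with no other strain mean above r = 0.09, and pairs of other strains were not compared. The centred male and female BUB/BnJ profiles correlated with each other at r = 0.66 across 22130 probe sets, and with arrays of other strains and the other sex at -0.22 to 0.16. Within the other strains the male and female arrays correlated at 0.14 to 0.69, with a median of 0.52. The nearest strain profiles were KK/HIJ (r = 0.09), P/J (0.09) and SWR/J (0.07). Probe sets are not independent replicates, and all these values share the centring. Of the 92 called genes, 39 had a SWR/J strain mean within 1 log2 unit of BUB/BnJ, 35 one of SJL/J and 32 one of NZW/LacJ. These were the highest counts, and the lowest was 18, for c57BL/6J.

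Several genes had more than 1 probe set. Of the 92 called genes, 38 had other tested probe sets, 73 in all, of which 61 had the same sign as the leading one and 15 of these were also called. Of 12 with the opposite sign 3 were called, in Cpne8, H2-D1 and Pdxdc1, the last of which was named after its values were seen. A probe set consists of short oligonucleotides that match a reference sequence, so a base difference or a different transcript end in BUB/BnJ alters the signal without a change of the gene's output. The part of such differences in the values above was not tested.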

How the data were processed

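Total RNA of pooled ganglia was extracted with Trizol and RNeasy columns, amplified and labelled with biotin, per the labels' protocols. The deposited values are linear probe set intensities that the authors made with GCRMA (R version 2.6.2), as the submitters' processing notes list; they ran from 1.629 to 24173.874. The lowest value was 1.629 on the male PL/J array, 1.635 to 1.655 on the male and 1.726 to 1.744 on the female arrays of the strains compared with BUB/BnJ, so the sexes may have been normalized separately, which the sources used here do not state; differences were therefore taken within sex. Array spots have no counts, so precision is limited by the number of arrays. Of 45101 probe sets, 64 controls were left out. The rest have 1 gene symbol (34945), several (932) or none (9160) in the platform annotation; genes were named from single-symbol probe sets only.

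log2(intensity + 1) was fitted with limma 3.58.1 in R 4.3.3, with strain and sex as terms, over 46 arrays of 23 strains, for probe sets above log2 4 in at least 2 arrays. The scripts were tested on simulated data. Named are the 15 largest rises and falls, up to 3 called genes of a list, the title genes, the MHC and strain variant lists, called neighbours and the 3 nearest strains; others are marked. Of the tested genes, 11183 were matched to the RefSeq table for their order. The genes, lists and the strain itself were chosen with earlier results of these data known. Alternatives covered the added constant, the filter, scaling, the call rule, the strains and arrays used and the probe sets averaged. All control samples were the other strains' arrays.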

Additional observations from a re-analysis of the deposited data

Results flagged for a closer look

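Whether the male and the female BUB/BnJ array differed from the other strains by unequal amounts was tested in limma with 1 term for that difference, an analysis added after the data had been seen. Of 22130 probe sets, 2 had an adjusted p under 0.05 and 339 an unadjusted p under 0.05. Zfp605, a zinc-finger gene, read 4.28 in the male and 3.19 in the female BUB/BnJ array. Its difference from the other strains was 1.24 on the male and -0.10 on the female array, so that the male exceeded the female difference by 1.34 (SE 0.21, adjusted p = 0.025 by limma). Myo5b, a myosin motor of vesicle recycling, read 4.41 and 3.36, and its differences of 1.20 and 0.31 were 0.90 apart (SE 0.15, adjusted p = 0.043 by limma). Both genes were near the lowest values of the arrays, neither was called in the main comparison, and each sex is 1 pool. None of the 92 called genes passed this test, but their call required both arrays on the same side, which favours equal differences. Of these genes 6 had an unadjusted p under 0.05, and the lowest adjusted p among the 92 was 0.43 by limma.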

How the results depend on the processing

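The counts of 136 higher and 98 lower probe sets stayed within 1.5 times under another scaling, filter, smaller added constant or variance model, without the sex term, with SM/J and PL/J kept, without the male arrays with Xist, without the arrays of highest Gapdh ratio and without any 1 of the 22 other strains (130 to 148 higher, 92 to 103 lower). They fell to 72 and 51 with log2(value + 16), to 10 and 11 with strain means as units and to 29 and 14 with a minimum difference of 2, and rose to 337 and 234 with no minimum. Without 1 BUB/BnJ array they were 94 to 95 higher and 63 to 66 lower. The alternatives were run on 53 of the called genes named here. Of these, 8 kept the call under every alternative run (Maats1, Sv2c, Gstz1, Gstt1, Akap7, Slc35b4, Rab27b and Rpp25l). Over 2007 alternatives 146 lost it and 0 changed direction. With strain means as units 43 of the 53 lost it. The alternatives with the median of the strains and without the arrays with Xist were added after seeing the data.

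Among 39 uncalled genes, Dctn3 passed without the female BUB/BnJ array (1.02), as did S100a8 and S100a9 without the arrays of highest Gapdh ratio (-2.02 and -2.37). Directions changed only near 0. Averaged over probe sets Pdia3 was -0.23 and P2rx3 0.0226. With arrays at the same median Psmb8 was -0.0366 and Pdia3 -0.00094, and after quantile normalization Psmb8 was -0.0273. Against the median of strains Psmb8 was -0.0607, Tlr4 0.0065 and Rpn1 -0.0076. With SM/J and PL/J kept Tyrp1 was 0.10, and without the arrays of highest Gapdh ratio Tap2 was 0.012. Leaving out 1 strain gave Tap2 0.0034 (BTBT T+tf/J), Psmb8 -0.018 (KK/HIJ), Rpn1 -0.050 (P/J) and P2rx3 0.0023 (DBA/2J) and 0.0064 (SJL/J). Leaving out 1 BUB/BnJ array gave -0.0375 to 0.012 for Tap2, -0.023 to 0.0447 for Psmb8, -0.269 to 0.097 for H2-Ab1, -0.374 to 0.044 for Cd74, -0.106 to 0.254 for H2-DMb2, -0.229 to 0.0121 for Tyrp1 and -0.0655 to 0.043 for P2rx3. The causes were not tested. The labels give no replicate numbers; sex, which pairs the arrays across strains, was already a term of the fit, and without it 115 probe sets were higher and 83 lower. With 1 array per sex, a change in either BUB/BnJ pool weighs on every value, and levels near log2 4 give no order.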

Other observations

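Genes outside the lists and the rule were named here after their values were seen. Tspo, a cholesterol-binding protein of the outer mitochondrial membrane used as a marker of glial activation, read 8.15 in the male and 8.12 in the female BUB/BnJ array against 5.90, 6.91 and 8.10 as lowest, median and highest elsewhere (difference 1.20, SE 0.17, adjusted p = 2.4e-05 by limma). Disp2, of the dispatched family of membrane proteins, read 10.76 and 10.70 against 8.67 to 10.32 (difference 1.23, adjusted p = 8.0e-07 by limma). On these probe sets both BUB/BnJ arrays were above all others, though 3 strains lay within 1 log2 unit for each. For Tspo this did not hold on its other probe sets. BUB/BnJ read 7.78 and 8.19 on 1438948_x_at, where other arrays reached 8.32 (difference 1.25). It read 6.06 and 6.79 on 1456251_x_at, where they reached 6.96 (difference 0.90). Ndufs5, a subunit of respiratory complex I, read 10.15 and 10.12 against a median of 11.70 (difference -1.28, adjusted p = 6.4e-08 by limma), with SWR/J nearest and 8 strains within 1 log2 unit. Rgs8, a regulator of G-protein signalling, read 4.79 and 5.0 against 6.70 (difference -1.67). The vesicle fusion protein Vamp3 read 7.30 and 7.16 against 8.75 (difference -1.31); averaged over its probe sets it was -0.41. Igf2, a growth factor of the mesenchyme and meninges, read 6.04 and 5.12 against 7.21 (difference -1.59) and lost its call without the female array (adjusted p = 0.68 by limma).

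Some called genes known from connective tissue lay outside the lists. They were picked after their values were seen, with no count of such genes on the array, and of the 19 genes of the fibroblast list 0 were called. Fmod, a collagen-binding proteoglycan, had a difference of -1.61, and its other 2 probe sets had -0.29 and -0.28. Averaged over its probe sets Fmod had -0.72, short of the call. Cnmd, a cartilage and tendon protein, had -1.36, Islr -1.17, Vtn (vitronectin) -1.17, Olfml3 -1.13 and Itgbl1 -1.11. Comp, a matrix protein of cartilage and tendon, went the other way at 1.01, and was 0.83 against the median of the strains. For Cnmd, BUB/BnJ read 4.70 and 5.01, against 3.65, 6.74 and 8.01 as lowest, median and highest elsewhere. Counted from the highest strain mean BUB/BnJ ranked 17 for Cnmd, so other strains were lower, and 7 strains lay within 1 log2 unit. With strain means as units Cnmd lost its call. Except for Cnmd the calls of these genes rested on few arrays. Fmod, Vtn, Olfml3 and Itgbl1 lost theirs without either BUB/BnJ array, with adjusted p of 0.058 to 0.69 by limma, and Islr without the male array (0.93). Comp lost its call without the male BUB/BnJ array (0.78) and fell to 0.96 to 0.99 without any 1 of A/J, BTBT T+tf/J, C57BR/cdJ, c57BL/6J, NON/LtJ or P/J. How much connective tissue each pool held was not tested.

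Probe sets other than the brightest of a gene gave 71 further calls in genes that were not called themselves; in 24 of them the brightest probe set had the opposite sign. The largest was 1456312_x_at of Gsn (gelsolin), which read 4.66 and 4.6 in BUB/BnJ against a median of 11.60 (difference -6.18), while the brightest Gsn probe set had a difference of -0.39. For Csnk2a1, a catalytic subunit of casein kinase 2, 1419035_s_at and 1419034_at had differences of 3.13 and 2.70 against 0.43 for the brightest. A probe set of the antioxidant enzyme Prdx2 gave 2.57 against -0.66. Fgl2, a fibrinogen-like protein, read 8.53 and 8.93 on 1421854_at against 5.40 to 7.91 elsewhere (difference 2.05), with 0.79 on its brightest probe set. The alternatives were not run on these single probe sets, apart from strain means as units, under which 1419035_s_at and the Fgl2 probe set remained called.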
